A study of Rattus norvegicus with 6 samples.

Results

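The 9 genes described here encode proteins of central myelin and of the oligodendrocyte that makes it: Mbp, Mobp, Cldn11, Mog, Mag, Cnp, Opalin, Ermn and Myrf. They were taken by symbol from a table of 33455 genes, each was found once, and all 9 passed the filter on low counts. RNA came from 6 libraries of rat spinal cord, with 3 rats each in the groups Gel+US and Piezo Gel+US. All rats were wild type, had a contusion injury at the T9 segment, and received a gel and ultrasound at 100 Hz and 1 W/cm2 for 10 min a day over 4 weeks. The groups differed in the gel, which was piezoelectric in Piezo Gel+US, meaning that it turns mechanical strain into electrical charge. The tissue was the lesion centre, about 5 mm3. Strain, age, sex and the time between the last stimulation and tissue collection are not given in the sources used here. Neither an uninjured group nor one without ultrasound was analysed here, so the values compare the gels and say nothing of the injury itself.

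Oligodendrocytes wrap axons of the central nervous system in compact myelin, in which the membrane layers are pressed together and the cytoplasm is squeezed out. Non-compact regions, at the inner and outer tongues and the loops beside the nodes, keep cytoplasm. Schwann cells make the myelin of peripheral nerve, and in contused cord they can enter the lesion and myelinate axons there. Some myelin genes are used by both cell types, among them Mbp, Mag and Cnp, whereas Mog, Mobp, Cldn11, Opalin, Ermn and Myrf are typical of the central type. Prx, in turn, is typical of the peripheral type.

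Myrf, itself one of the 9 genes, encodes the transcription factor that drives central myelination, and SOX factors act beside it, so the stretches before the start sites were searched for the letters both recognise. RefSeq windows on GRCr8 were at hand for 6 of the 9 genes, with 2 windows for Mbp. Sequences of Mog, Ermn and Myrf are not shown. The MYRF letters searched were CTGGCAC and CTGGTAC, on both strands, over the 250 bases before the start. They occurred in 4 of the 7 windows, those of Mag, Opalin, Cldn11 and Cnp, and in 5.48% of all 33469 RefSeq windows of that length. The SOX letters ACAAAG and ACAATG, on both strands, occurred in 5 of the 7 windows and in 25.3% of all. No SOX match overlapped a MYRF match in these windows. Below are the whole 250 bases for Cldn11 and Cnp, shown because they come from a gene typical of central myelin and from one that both cell types use. They are followed by 27 bases around the match for Mag and Opalin. Capitals mark the matches.
Cldn11 (chr2:114149540-114149789, minus strand): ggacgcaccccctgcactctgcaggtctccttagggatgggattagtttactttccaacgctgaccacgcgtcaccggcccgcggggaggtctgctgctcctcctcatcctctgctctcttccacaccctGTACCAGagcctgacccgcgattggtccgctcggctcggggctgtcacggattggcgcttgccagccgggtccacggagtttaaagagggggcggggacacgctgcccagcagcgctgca
Cnp (chr10:86011254-86011503, plus strand): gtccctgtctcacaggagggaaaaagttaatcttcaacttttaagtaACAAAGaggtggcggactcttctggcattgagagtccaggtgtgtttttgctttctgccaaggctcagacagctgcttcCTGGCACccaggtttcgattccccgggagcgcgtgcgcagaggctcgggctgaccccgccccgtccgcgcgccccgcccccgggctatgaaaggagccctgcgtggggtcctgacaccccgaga
Mag (chr1:95291122-95291148, minus strand): caggcggcccCTGGCACccagggggca
Opalin (chr1:249858191-249858217, minus strand): cagacctacaGTGCCAGtgagagagaa

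Read from the gene's own strand, the MYRF letters lay forward in Mag (bases -94 to -88 from the start) and Cnp (-124 to -118), and in reverse in Cldn11 (-120 to -114) and Opalin (-17 to -11). Cnp carried a SOX match at -203 to -198, and the Cldn11 window carried none. The Mobp window held 8 SOX matches, all in reverse between -242 and -115, and no MYRF match, while of the 2 Mbp windows 1 held 3 SOX matches. These are matches of letters, not measured binding.

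Total counts ran from 17212653 to 21436820 per library, so counting error was small for these genes, the fewest being 399 counts of Opalin in Piezo Gel+US replicate 2. That library stood apart from the others in its myelin. Prx, the periaxin of Schwann cells, measured 489, 865 and 687 CPM (counts per fixed number of counts in the library, after scaling by trimmed mean of M-values) in Gel+US replicates 1 to 3. It measured 814, 5400 and 1403 CPM in Piezo Gel+US replicates 1 to 3. Neuronal and astrocyte markers were detected in every library. In Piezo Gel+US replicate 2, 11 of 15 neuronal and 9 of 11 astrocyte genes were lowest (28.4% of all genes). Summed levels are given at the end. The make-up of the tissue in Piezo Gel+US replicate 2 was not tested. Values without that library are therefore given beside most fold changes and the list medians.

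No gene separated the gels by the test over the whole table. With edgeR's quasi-likelihood test 0 of 17066 genes (0%) passed an adjusted p of 0.05, and 359 (2.10%) had an unadjusted p below 0.05. DESeq2 and limma-voom also called 0 genes, with 652 of 23195 and 2390 of 17066 genes below that unadjusted level. Of the 9 central myelin genes 0 were called and 0 were below the unadjusted level with any of these tools. Groups overlapped for each of the 9, where 6.81% of all genes had groups that did not overlap. Log2 fold changes, with positive values for a higher level in Piezo Gel+US, were above 0 for 4 of the 9 (47.1% of all genes) with a median of -0.018, against -0.021 over all genes.

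The pattern that ran through the genes was by library rather than by gel. Piezo Gel+US replicate 2 had the lowest level of the 6 libraries for 7 of the 9 genes, while 28.4% of all genes had their lowest level there. The exceptions were Mbp and Cnp. Gel+US replicate 2 was the next lowest for those 7 genes and the lowest for Mbp and Cnp.

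**Figure D1:**
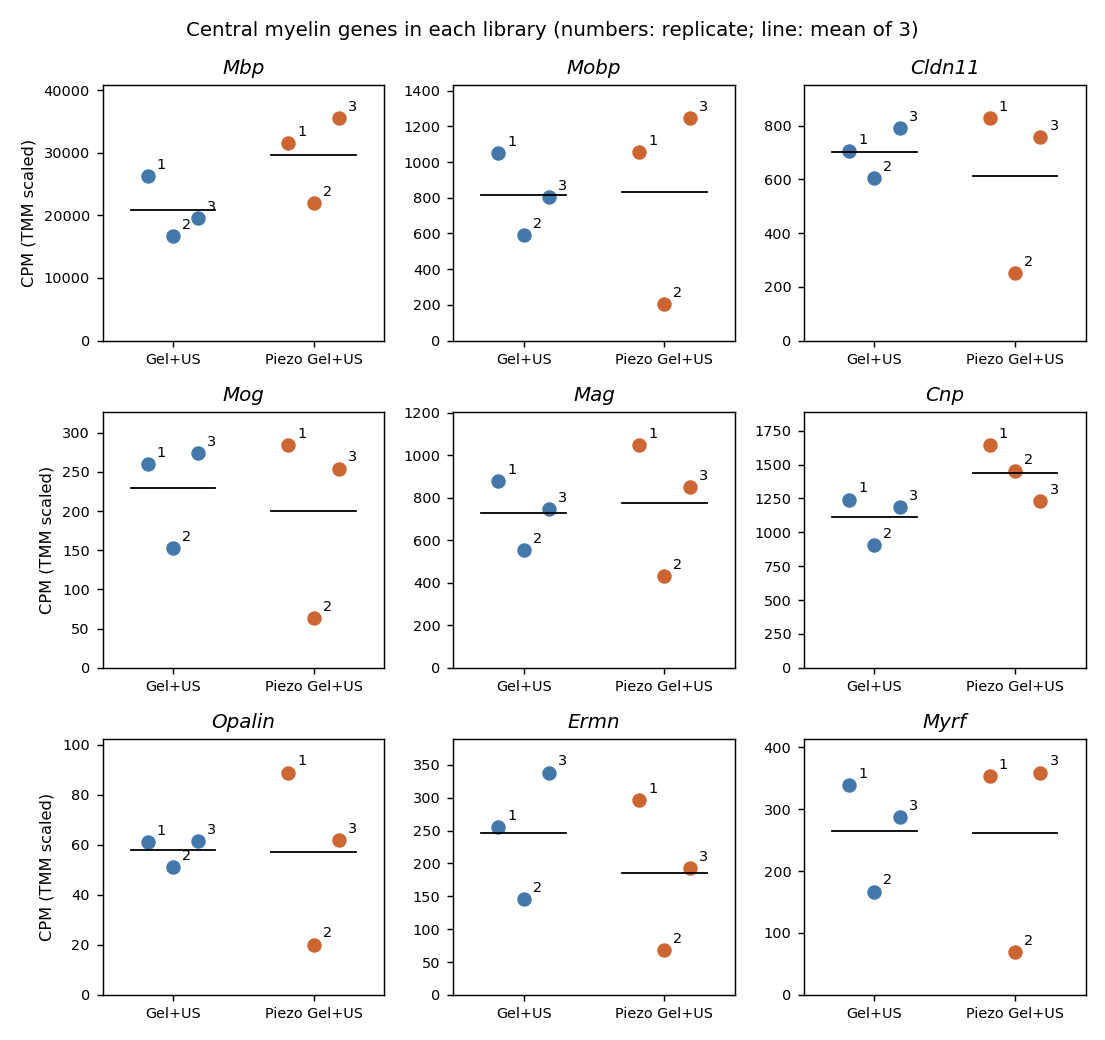
CPM (vertical axes, from 0) of the 9 genes in the 3 Gel+US libraries (blue) and the 3 Piezo Gel+US libraries (orange), with the replicate number beside each point and a line at the group mean. Piezo Gel+US replicate 2 is lowest for all genes but Mbp and Cnp, and the groups overlap in each panel.

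Mbp encodes myelin basic protein, which holds the cytoplasmic faces of the compact myelin membrane together. It was the most abundant of the 9 genes, at 26208, 16724 and 19523 CPM in Gel+US replicates 1 to 3 and at 31502, 21978 and 35509 CPM in Piezo Gel+US replicates 1 to 3. Piezo Gel+US replicates 1 and 3 lay above all Gel+US libraries, and replicate 2 lay inside the Gel+US range. The Gel+US mean was 20818 ± 4873 CPM and the Piezo Gel+US mean 29663 ± 6950 CPM (SD, n = 3 each), a log2 fold change of 0.51 with a 95% interval of -0.44 to 1.46 (edgeR adjusted p = 0.994). Without Piezo Gel+US replicate 2 the log2 fold change was 0.68 (-0.18 to 1.54). The gene spans 49732626 to 49818803 on the minus strand, as numbered in the authors' table (build not given in the sources used here).

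Mobp encodes a small basic protein of compact central myelin. It measured 1051, 590 and 803 CPM in Gel+US replicates 1 to 3 and 1057, 203 and 1245 CPM in Piezo Gel+US replicates 1 to 3. Its 2 higher Piezo Gel+US libraries passed the highest Gel+US library, while replicate 2 was at 21.4% of the mean of the other 5 libraries, the lowest share among the 9 genes. The log2 fold change was 0.036 (95% interval -1.46 to 1.54), and without that library it was 0.49 (-0.23 to 1.22).

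Cldn11 encodes claudin-11, the tight junction protein that seals the layers of central myelin along its radial component. Its levels were 706, 606 and 792 CPM in Gel+US replicates 1 to 3 and 827, 252 and 757 CPM in Piezo Gel+US replicates 1 to 3. Replicate 2 of Piezo Gel+US stood far below the other 5, which lay within a narrow band. The log2 fold change of -0.20 (95% interval -1.25 to 0.86) turned to 0.17 (-0.36 to 0.70) without it.

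Mog encodes myelin oligodendrocyte glycoprotein, an immunoglobulin-type protein on the outermost surface of central myelin. It measured 260, 152 and 274 CPM in Gel+US replicates 1 to 3 and 284, 63.6 and 254 CPM in Piezo Gel+US replicates 1 to 3. Replicates 1 and 3 of both groups lay close together and both replicates 2 lay below them. The log2 fold change was -0.19 (95% interval -1.50 to 1.11) with all libraries and 0.23 (-0.48 to 0.94) without Piezo Gel+US replicate 2.

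Mag encodes myelin-associated glycoprotein, which sits on the innermost myelin membrane facing the axon. Gel+US replicates 1 to 3 had 878, 553 and 747 CPM and Piezo Gel+US replicates 1 to 3 had 1046, 432 and 849 CPM. The low value of Piezo Gel+US replicate 2 was 53.0% of the mean of the other 5 libraries, a smaller drop than for Mobp, Cldn11 or Mog. The log2 fold change was 0.095 (95% interval -0.79 to 0.98), and 0.38 (-0.27 to 1.03) without that library.

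Cnp encodes the 2',3'-cyclic nucleotide phosphodiesterase that keeps cytoplasmic channels open in non-compact myelin. It measured 1242, 905 and 1187 CPM in Gel+US replicates 1 to 3 and 1642, 1450 and 1233 CPM in Piezo Gel+US replicates 1 to 3. Here Piezo Gel+US replicate 2 was the second highest of the 6, and the groups overlapped only through Piezo Gel+US replicate 3, just under Gel+US replicate 1. The Gel+US mean was 1111 ± 181 CPM and the Piezo Gel+US mean 1442 ± 205 CPM (SD, n = 3 each), a log2 fold change of 0.38 with a 95% interval of -0.22 to 0.97 (edgeR adjusted p = 0.994). Without Piezo Gel+US replicate 2 the log2 fold change was 0.37 (-0.28 to 1.01). With all libraries Cnp had the smallest unadjusted p of the 9 genes, 0.179 by edgeR, and the narrowest interval.

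Opalin encodes a membrane protein of the paranodal and inner loops, Ermn encodes ermin, a cytoskeletal protein of late oligodendrocytes, and Myrf encodes the regulator whose letters were searched above. Opalin, the least abundant, measured 61.1, 51.2 and 61.4 CPM in Gel+US replicates 1 to 3 and 88.9, 20.1 and 62.0 CPM in Piezo Gel+US replicates 1 to 3. Its Gel+US libraries were nearly level (SD 5.81), and the Piezo Gel+US libraries lay on both sides of them. The log2 fold change was -0.023 (95% interval -1.18 to 1.14), and 0.37 (-0.13 to 0.88) without Piezo Gel+US replicate 2.

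Ermn measured 256, 146 and 338 CPM in Gel+US replicates 1 to 3 and 296, 68.3 and 193 CPM in Piezo Gel+US replicates 1 to 3. It was the only one of the 9 genes with its highest level in a Gel+US library, replicate 3, and it had the lowest log2 fold change of the 9 (-0.41, 95% interval -1.72 to 0.90). Without Piezo Gel+US replicate 2 that value was -0.022. Myrf measured 338, 167 and 287 CPM in Gel+US replicates 1 to 3 and 354, 69.2 and 359 CPM in Piezo Gel+US replicates 1 to 3. Its highest and lowest libraries were both in Piezo Gel+US, and the log2 fold change was -0.018 (95% interval -1.47 to 1.43), or 0.43 without Piezo Gel+US replicate 2.

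**Figure D2:**
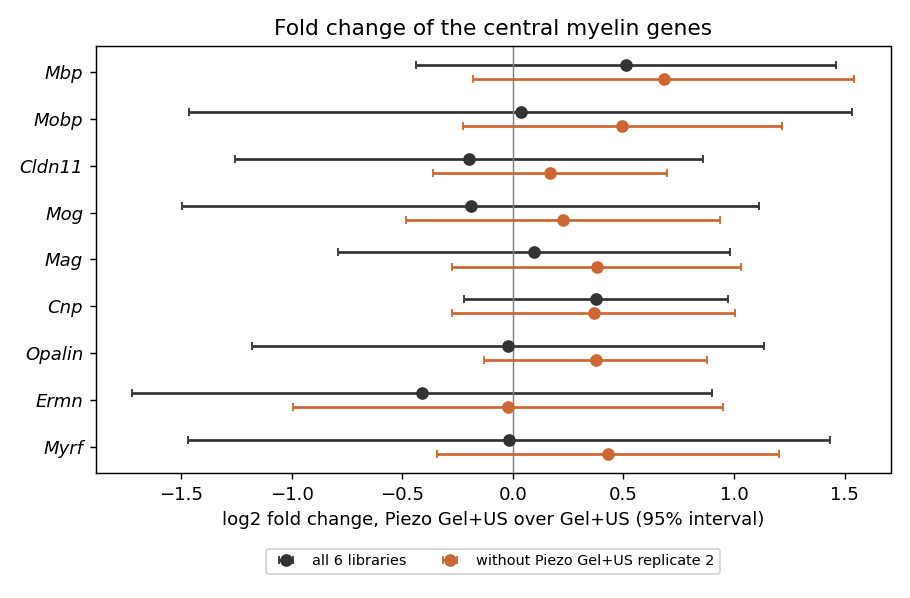
Log2 fold change of Piezo Gel+US over Gel+US with its 95% interval (horizontal axis) for the 9 genes, from all 6 libraries (black) and without Piezo Gel+US replicate 2 (orange). Every interval spans 0 in both fits, and without that library 8 of the 9 values lie above 0.

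Without Piezo Gel+US replicate 2 the log2 fold changes were above 0 for 8 of the 9 genes, all but Ermn, with a median of 0.37 against -0.035 over all genes in that fit. Still 0 of the 9 were called or had an unadjusted p below 0.05 (edgeR). The sign of the median of the 9 turned on which library was left out. It was 0.20, -0.15 and 0.026 without Gel+US replicates 1, 2 and 3, and -0.31 and -0.32 without Piezo Gel+US replicates 1 and 3. In bulk tissue fewer oligodendrocytes and less RNA per oligodendrocyte cannot be told apart.

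Libraries of equal replicate number deviated together weakly over all genes, with correlations of 0.251 to 0.296. For unequal numbers these were -0.342 to 0.198. The differences within each number are therefore given beside the group means. Between the replicates 1 all 9 genes were higher in Piezo Gel+US (50.5% of all genes were), with log2 differences from 0.0077 for Mobp to 0.54 for Opalin. Between the replicates 2 only Mbp and Cnp were higher (48.2% of all genes), and the other 7 had differences from -0.36 for Mag to -1.54 for Mobp. Between the replicates 3 there were 6 higher (51.9% of all genes) and 3 lower, the last being Cldn11, Mog and Ermn. Mbp and Cnp were thus the 2 genes higher in all 3 pairs (14.3% of all genes), by 0.27, 0.39 and 0.86 for Mbp and by 0.40, 0.68 and 0.054 for Cnp. With the replicate number as a block, edgeR called 0 of the 9 genes and 0 genes in all, 986 genes had an unadjusted p below 0.05, and Mbp and Cnp had log2 fold changes of 0.51 (95% interval -0.35 to 1.36) and 0.38 (-0.20 to 0.96).

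Levels between genes were compared per kilobase of the gene length in the deposited table, as FPKM (CPM divided by length in kilobases). Mbp led with 8337 ± 1951 FPKM in Gel+US (SD, n = 3, as for the next values), followed by Mobp at 975 ± 276 and Cnp at 450 ± 73.2. Then came Cldn11 at 373 ± 49.6 and Mag at 232 ± 52.3. Ermn at 149 ± 58.1 and Mog at 137 ± 39.9 were next, before Myrf at 61.7 ± 20.6 and Opalin at 20.0 ± 2.01. The neighbours Ermn and Mog did not differ beyond their spread, and Ermn was the higher in 3 of the 6 libraries. Cnp was above Cldn11 in each of the 6 libraries. From Mbp down to Mag the order was the same in all libraries but Piezo Gel+US replicate 2, where Cnp (587 FPKM) passed Mobp (243) and Mag (138) passed Cldn11 (134).

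A comparison that does not depend on library scaling is the ratio between genes of 1 library, taken here to Mog because Mog is typical of central myelin. Mobp, Cldn11, Opalin, Ermn and Myrf kept their ratio to Mog within a factor of 1.35 (Myrf) to 1.67 (Mobp) between the lowest and the highest of the 6 libraries. For these 5 genes Piezo Gel+US replicate 2 lay inside the range of the other 5 libraries, so the 6 central genes were low together there. Their summed level was 676 CPM in that library and 1712 to 2907 CPM in the others.

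Mbp, Cnp and Mag did not keep their ratio. Mbp stood at 71.2 to 140 times the level of Mog in the other 5 libraries and at 346 times in Piezo Gel+US replicate 2. Cnp stood at 4.33 to 5.94 times Mog in the 5 and at 22.8 times in that library. For Mag the values were 2.72 to 3.69 and 6.79. These 3 are the members also used by Schwann cells. Prx stood at 1.88 to 5.69 times Mog in the 5 libraries and at 84.9 times in Piezo Gel+US replicate 2. The choice of Mog and this grouping were made after the values were seen, and the part of Schwann cells in the levels of Mbp, Cnp and Mag was not tested.

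**Figure D3:**
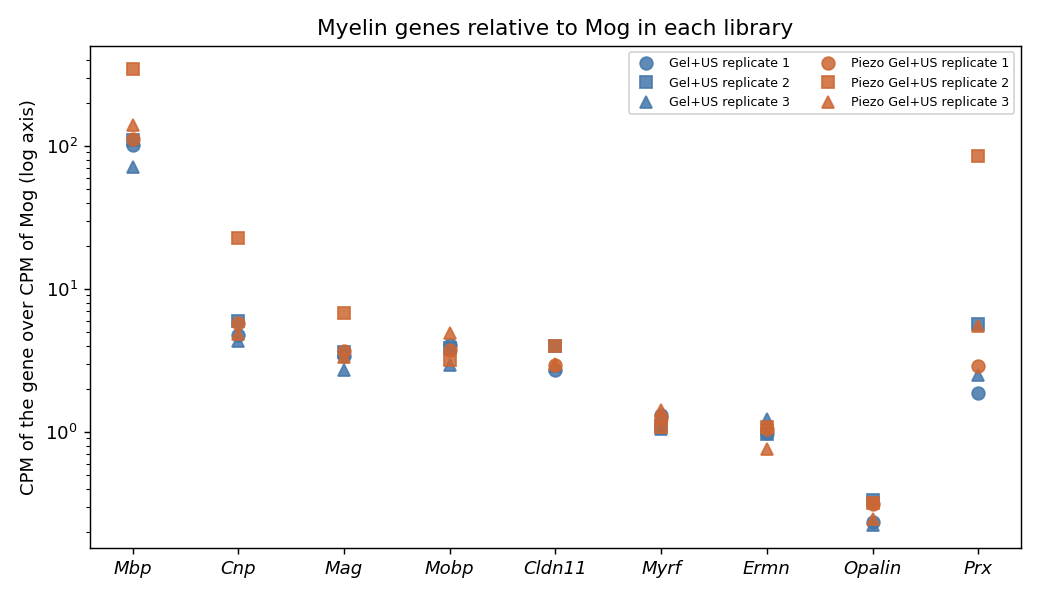
CPM of each gene divided by CPM of Mog in the same library (log axis), for 8 of the 9 central myelin genes and for Prx, with colour for the group and symbol for the replicate. Mobp, Cldn11, Myrf, Ermn and Opalin keep 1 band over the 6 libraries, while Piezo Gel+US replicate 2 stands above the rest for Mbp (346), Cnp (22.8), Mag (6.79) and Prx (84.9).

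The ratio of Mbp to Mog also spread among the other libraries, between 71.2 in Gel+US replicate 3 and 140 in Piezo Gel+US replicate 3.

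The genes whose log2 CPM followed the mean profile of the 9 most closely over the 6 libraries were, in order of Pearson's r, Gpr62, Bin1, Cpm, Klhdc7a, St6galnac3, Larp6, Nadk2, Fbxo32, Aplp1 and Dennd11, with r from 1.00 to 0.994. Gpr62, an orphan receptor, measured 32.7, 18.7 and 30.4 CPM in Gel+US replicates 1 to 3 and 40.3, 9.20 and 34.6 CPM in Piezo Gel+US replicates 1 to 3. It was highest in Piezo Gel+US replicate 1 and lowest in Piezo Gel+US replicate 2, as the mean profile was (0.54 and -1.11 from its own average, in log2 units). Without Piezo Gel+US replicate 2 the r of the 10 genes ranged from 1.00 to 0.975 over 5 libraries. A high r was not rare over the 6 libraries: of 10244 genes considered, 704 had r above 0.9. The 10 genes were picked by their r over these same libraries, so their likeness to the profile follows from the choice.

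Lists of other genes of myelin and of the oligodendrocyte lineage, drawn up from general knowledge with earlier results of these data known, gave the wider setting. Of 17 other myelin proteins 11 had log2 fold changes above 0 (47.1% of all genes), with a median of 0.11. In Piezo Gel+US replicate 2, 9 were lowest (28.4% of all genes) and 5 highest (29.2%). By edgeR 0 were called, with 2 below an unadjusted p of 0.05 (2.10% of all genes). Without Piezo Gel+US replicate 2, 16 of the 17 were above 0 (median 0.31). The 3 of lowest p were Plekhb1 (log2 fold change 0.71), a membrane-associated protein, Mal (1.04), a raft protein of myelin, and Pllp (0.92), plasmolipin. All 3 were highest in Piezo Gel+US replicate 2, and without it their values were 0.55, 0.47 and 0.32. Groups did not overlap for Plekhb1 and Pllp (6.81% of all genes) and overlapped for Mal. Mal and Pllp are also made by Schwann cells.

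Enzymes of myelin lipids were mostly at their highest in Piezo Gel+US replicate 2, where most of the central myelin genes were at their lowest. Of 15 such genes 13 had log2 fold changes above 0 (47.1% of all genes), with a median of 0.39. In that library 13 were highest, where 29.2% of all genes were highest. Fa2h, the fatty acid 2-hydroxylase of galactolipids, measured 230, 178 and 276 CPM in Gel+US replicates 1 to 3 and 336, 744 and 337 CPM in Piezo Gel+US replicates 1 to 3. Its groups did not overlap, as for Elovl1, a fatty acid elongase with a log2 fold change of 0.65, and some others of the list. Over all genes 6.81% had groups that did not overlap. Gal3st1, which makes sulfatide, had 0.70 with groups that overlapped. By edgeR 0 of the 15 were called and 2 were below an unadjusted p of 0.05 (2.10% of all genes). Leaving that library out gave a median of 0.16, and Fa2h, Elovl1 and Gal3st1 had 0.55, 0.33 and 0.35. The list does not separate enzymes of central from those of peripheral myelin. The part of Schwann cells in these levels was not tested.

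The 13 genes of glial coupling and metabolism had 6 values above 0 (47.1% of all genes) and 7 below (median -0.055). Without Piezo Gel+US replicate 2 there were 11 above 0 (median 0.12). Gjb1, the connexin 32 of both myelins, had a log2 fold change of 0.54, Apod, a lipid carrier, 0.34 and Ninj2, an adhesion protein, -0.43. Without Piezo Gel+US replicate 2 Gjb1 and Apod had 0.36 and 0.11. Only Ninj2 of these had groups that did not overlap (6.81% of all genes), with Gel+US the higher. The 10 genes listed for transcription in the oligodendrocyte lineage, not all of them transcription factors, had 7 above 0 (median 0.037). Nkx6-2 had 0.31, Tcf7l2 0.38 and Sox8 0.15. Without Piezo Gel+US replicate 2 these 3 had 0.75, -0.091 and 0.34, and 8 of the 10 were above 0 (median 0.27). Of both lists edgeR called 0 genes, with 0 below an unadjusted p of 0.05. Sox10 was not analysed here.

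Genes of oligodendrocyte precursors, the cells from which new oligodendrocytes form, had 3 of 11 values above 0 (47.1% of all genes). Their median was -0.25, and 7 were lowest in Piezo Gel+US replicate 2 (28.4% of all genes). Cspg4, the NG2 proteoglycan, measured 81.9, 87.3 and 61.5 CPM in Gel+US replicates 1 to 3 and 92.3, 130 and 106 CPM in Piezo Gel+US replicates 1 to 3. Its groups did not overlap, where 6.81% of all genes had such groups. The log2 fold change was 0.51, and 0.36 without Piezo Gel+US replicate 2, though Cspg4 also marks pericytes. Gpr17, a receptor of cells committed to differentiate, had -0.52 and Matn4, a matrix protein, -0.95. Without Gel+US replicate 2 Matn4 had 0.13, and without Gel+US replicate 3 Gpr17 had -0.27. EdgeR called 0 of the 11, with 1 below an unadjusted p of 0.05 (2.10% of all genes). Leaving out Piezo Gel+US replicate 2 gave a median of 0.0073.

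Genes of peripheral myelin and Schwann cells had the highest median log2 fold change of the myelin and oligodendrocyte lists. All 16 had log2 fold changes above 0 (47.1% of all genes), with a median of 1.54. Ngfr (0.0015) and Sox2 (0.033) were almost level between the gels, and Mpzl2 had 0.16. Highest in Piezo Gel+US replicate 2 were 14 of the 16 (29.2% of all genes). By edgeR 0 of the 16 were called, with 5 below an unadjusted p of 0.05 (2.10% of all genes). Their summed level ran from 1483 to 2689 CPM in Gel+US, and was 2414, 12534 and 3921 CPM in Piezo Gel+US replicates 1 to 3. Drp2, Cldn19 and Ncmap, the 3 of lowest p, had log2 fold changes of 1.56, 2.14 and 2.08, and Prx had 1.90. Of these only Cldn19 had groups that did not overlap (6.81% of all genes). Without Piezo Gel+US replicate 2 these 4 had 0.99, 0.85, 0.88 and 0.69, and the median was 0.44. Cldn19, the claudin of Schwann cells, was thus at its highest (618 CPM) in the library where Cldn11, its counterpart in central myelin, was at its lowest (252 CPM).

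**Figure D4:**
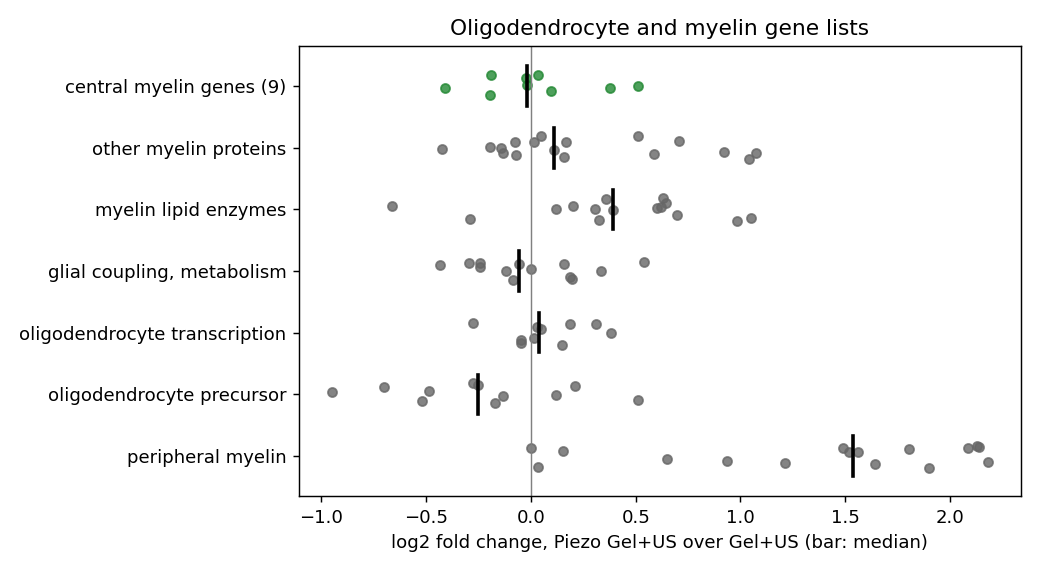
Log2 fold change of Piezo Gel+US over Gel+US (horizontal axis) of each gene in 7 lists, with a bar at the median. The 9 central myelin genes (green) lie around 0 (median -0.018), the myelin lipid enzymes around 0.39 and the peripheral myelin genes around 1.54.

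Genes of neurons, astrocytes and microglia were also mostly lowest in the same library. Of 15 neuronal genes 11, of 11 astrocyte genes 9 and of 15 microglia and macrophage genes 10 were lowest in Piezo Gel+US replicate 2. Over all genes 28.4% were lowest there. For neurons, astrocytes and microglia with macrophages the median log2 fold changes were -0.53, -0.21 and -0.30. Without that library these medians were -0.27, 0.16 and 0.054. The summed level of the neuronal genes ran from 3612 to 20708 CPM in Gel+US and from 2823 to 10750 CPM in Piezo Gel+US. For the astrocyte genes these ranges were 5136 to 7435 and 3093 to 7277 CPM, and for the microglia and macrophage genes 1049 to 1557 and 870 to 1661 CPM. The 10 fibroblast genes had 886 to 8979 and 1560 to 6807 CPM, with the highest level of each group in its replicate 2. Their median log2 fold change was -0.11, and leaving out replicate 2 of Piezo Gel+US moved it to -1.21, leaving out replicate 2 of Gel+US to 1.55. The 2 erythrocyte genes that matched, Alas2 and Slc4a1, had a median of -1.66 (-1.45 without Piezo Gel+US replicate 2), with summed levels of 36.2 to 1361 CPM in Gel+US and 28.9 to 632 CPM in Piezo Gel+US. No marker of these lists was at 0 in any library. The part of these cells in the levels of the central myelin genes was not tested.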

How the data were processed

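RNA of 6 lesion-centre samples was measured, 3 in each group. The authors deposited raw counts per gene, and the submitters' processing notes list DESeq2 1.20.0, featureCounts 1.5.0-p3, HISAT2 2.0.5 and fastp 0.19.7 with no roles. The libraries kept strand, per the labels' protocols. Strand use in counting and the genome build are not given in the sources used here. None of the table's gene identifiers is in the RefSeq table of GRCr8 (0 matches), and its sequence names are, from general knowledge, those of the black rat. Reads that differ from that reference could be lost in both groups, which was not tested. The gene lengths are the authors' deposited values in bases.

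Genes passing filterByExpr (minimum count 10, minimum total 15) were fitted in edgeR 4.0.16 (R 4.3.3) with TMM factors and group as the only term. The robust quasi-likelihood test was adjusted by Benjamini-Hochberg over 17066 genes. Alternatives were RLE, upper-quartile and no factors, no filter, DESeq2 1.42.0, limma-voom (limma 3.58.1) with quality weights, the replicate block, and each library left out. Log2 CPM used a prior count of 2.

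Members and lists were chosen with earlier results of these data known. Of 162 list entries 139 matched by symbol, 5 by a protein match, and 18 had no match and were not analysed here, Pmp22 and Gfap among them. Named genes are the 9 members, the 3 of lowest p in each list of myelin and oligodendrocyte lineage genes, Prx, and the 10 genes most correlated with the members' mean profile among tested genes with mean log2 CPM of at least 3 and a proper symbol. Lists of other cell types, for which the rule also picks 3 genes, are given as counts. Some genes are not reported here.

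Both groups have libraries numbered 1 to 3. Deviations from group means correlated at 0.253, 0.296 and 0.251 for equal numbers 1 to 3. The highest value for unequal numbers was 0.198. By the rule for this check the equal numbers are marked as pairs, though only weakly. The main fit left this pairing out. The labels give the libraries as biological replicates without naming a shared litter or day, so the pairing rests on the data alone. Positions are those of the deposited table, except for the RefSeq sequences on GRCr8.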

Additional observations from a re-analysis of the deposited data

How the results depend on the processing

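None of the 9 central myelin genes was called in any alternative, their lowest adjusted p being 0.385 (limma-voom, Mbp) and their highest 1.00. Direction was less stable: of 117 alternative values for the 9 genes 100 kept their sign and 17 did not. Mbp and Cnp stayed above 0 and Ermn below 0 in every alternative run. Under limma-voom 7 of the 9 were above 0, with Cldn11 at 0.065, Myrf at 0.018 and Opalin at 0.13, and with the replicate block Mobp was at -0.28. The replicate block changed no call. Leaving out 1 library, between 2 and 8 of the 9 were above 0, and the log2 fold changes ran from -0.49 to 0.17 for Cldn11, -0.19 to 0.38 for Mag, -0.37 to 0.49 for Mobp, -0.54 to 0.23 for Mog, -0.32 to 0.43 for Myrf and -0.51 to 0.37 for Opalin. Elsewhere they ran from -0.053 to 0.75 for Nkx6-2, -0.0081 to 0.34 for Sox8, -0.091 to 0.70 for Tcf7l2 and -1.30 to 0.13 for Matn4. The cause of these changes was not tested. Genes at an unadjusted p below 0.05 numbered 359, against 652 with DESeq2, 2390 with limma-voom, 986 with the replicate block and 141 to 775 with 1 library left out. Raw library totals moved the share of genes above 0 from 47.1% to 39.3%, and RLE and upper-quartile factors changed no sign among the 9. Without division by length Cnp ranked above Mobp, Mag above Cldn11, and Myrf above Ermn and Mog.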
